A study of Mus musculus with 4 samples.

Results

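The Toll-like receptor family was followed across the cell classes of the inflamed mouse colon. The 10 genes were listed by symbol (Tlr1 to Tlr9 and Tlr13), and all 10 were found among the 32285 genes of the count matrices. The material was 4 samples of colonic lamina propria leukocytes, isolated with magnetic beads against the pan-leukocyte protein CD45 and profiled by droplet single-cell RNA sequencing. The mice were 10 weeks old by the labels, while the study's text gives a different age, and had received dextran sulfate sodium (DSS), a sulfated polysaccharide given in drinking water that injures the colon lining and causes colitis. By the methods of the study, each sample pooled several mice of 1 group, and the groups were AhR-null mice (lacking the aryl hydrocarbon receptor in all cells) and wild-type mice, all on DSS. The labels do not say which samples were AhR-null, so no genotype was compared: values are given per sample, as samples 1 to 4, and no test between samples was made. Because each sample is a pool and no sample without DSS was analysed here, differences between animals and the effect of DSS could not be read.

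Toll-like receptors are membrane proteins that bind conserved microbial molecules and, through adaptor proteins, switch on inflammatory genes. The receptors for microbial surfaces sit on the plasma membrane. Tlr2 binds bacterial lipopeptides in pairs with Tlr1 or Tlr6, Tlr4 binds lipopolysaccharide together with Ly96 and Cd14, and Tlr5 binds flagellin. The others sense nucleic acids inside endosomes and need the chaperone Unc93b1 to get there: Tlr3 binds double-stranded RNA, Tlr7 single-stranded RNA, Tlr9 DNA with unmethylated CpG, and Tlr13 bacterial ribosomal RNA. Tlr8 is the neighbour and close relative of Tlr7. Myeloid cells carry many of these receptors, plasmacytoid dendritic cells (pDCs) are known for Tlr7 and Tlr9, and cross-presenting dendritic cells (cDC1) for Tlr3.

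In GRCm38, the genes lie on chromosomes 1 (Tlr5), 3 (Tlr2), 4 (Tlr4), 5 (Tlr1 and Tlr6), 8 (Tlr3), 9 (Tlr9) and X (Tlr7, Tlr8 and Tlr13). Tlr1 (64924679-64933563) and Tlr6 (64952031-64960097) are neighbours on the minus strand of chromosome 5, and Tlr8 (167242696-167264329) and Tlr7 (167304929-167330558) are neighbours on the minus strand of chromosome X. How reads that match both genes of such a related pair were counted is not given in the sources used here, so the split within a pair is uncertain to that extent. Tlr3 is overlapped on the opposite strand by Gm45542, and no other member is overlapped by another gene in GENCODE M21.

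The promoters of 3 members that share a myeloid pattern (Tlr2, Tlr6 and Tlr13, values below) are shown, as the bases that precede the first GENCODE exon within the 250 bases before the RefSeq start site (GRCm38.p6). RefSeq windows were found for 8 of the 10 members, not for Tlr4 and Tlr7. The Tlr3 window was left out because too few of its bases precede the first exon. Capitals mark matches to motifs searched on both strands: AGGAAG (the core bound by PU.1, a factor of myeloid cells, CTTCCT on the other strand), GGG, NNN and TTCC in a row (NF-kB), TTGCNNAA (C/EBP), TGANTCA (AP-1), and GAAA, NN and GAAA in a row (the interferon-stimulated response element).
Tlr2 (chr3:83841768-83841858, minus strand): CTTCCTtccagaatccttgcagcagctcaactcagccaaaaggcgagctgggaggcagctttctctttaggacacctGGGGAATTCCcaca
Tlr6 (chr5:64960098-64960298, minus strand): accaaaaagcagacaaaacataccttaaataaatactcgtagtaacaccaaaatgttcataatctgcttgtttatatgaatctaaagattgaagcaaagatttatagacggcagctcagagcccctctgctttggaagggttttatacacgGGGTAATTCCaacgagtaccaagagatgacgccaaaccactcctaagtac
Tlr13 (chrX:106143025-106143203, plus strand): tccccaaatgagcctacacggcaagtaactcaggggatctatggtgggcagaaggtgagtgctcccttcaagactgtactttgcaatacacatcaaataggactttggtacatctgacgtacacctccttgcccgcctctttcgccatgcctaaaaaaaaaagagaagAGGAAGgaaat
The Tlr2 sequence holds a PU.1 core at its first base, 250 bases before the RefSeq start, and an NF-kB match 173 bases before it. The Tlr6 sequence holds 1 NF-kB match 99 bases before the start, although the first transcribed bases of that RefSeq window lie in no M21 transcript of the gene, and the Tlr13 sequence 1 PU.1 core 82 bases before it. Of 32536 promoters searched over the same 250 bases, 29.6% held the PU.1 core, 4.65% the NF-kB letters, 9.57% the C/EBP, 6.73% the AP-1 and 2.98% the interferon-response letters. Among the other windows, Tlr1 held a PU.1 core, Tlr8 a C/EBP match, Tlr9 a PU.1 core and an AP-1 match, and Tlr5 none of these motifs. The matches are a description of the sequence only.

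The matrices held 11425, 13730, 11581 and 8493 cells, with 72509408 to 135516016 unique molecular identifiers (UMIs, each a tag for 1 captured RNA molecule) per sample. After filters and removal of likely doublets, 39550 cells were kept, with a median of 5633.5 to 7084 UMIs per cell. Between 23 and 49 cell barcodes were shared by any 2 samples, at most 0.423% of the smaller one. Cells were clustered without the Toll-like receptor genes or their pathway genes, and clusters were named by fixed marker lists, as "neutrophil-like" and so on. This gave 5705 neutrophil-like, 4595 monocyte-like and 4705 macrophage-like cells, with 6305 B cell-like, 5073 T cell-like and 1088 NK cell- or ILC-like cells among the lymphocytes. Another 6008 cells (10.9 to 21.3% of a sample) lay in clusters that carried markers of more than 1 lineage, called mixed here, and 2445 cells (4.08 to 8.13%) in clusters with no clear name. The classes also included 212 cDC1-like, 383 cDC2-like, 868 mature DC-like and 189 pDC-like cells. Despite the CD45 selection, 333 epithelial cell-like, 206 endothelial cell-like and 621 fibroblast-like cells were present. Plasma cell-like (597) and mast cell- or basophil-like (217) cells completed the classes. All markers were over 2-fold higher in the named class than outside it in 11 of the 15 lists, and in the others this held for 9 of 11 (monocyte), 13 of 14 (NK cell or ILC), 11 of 12 (pDC) and 9 of 10 (plasma cell) markers. The clusters were named with these same markers. A class was read in a sample only where it held at least 50 cells, which left 50 class-by-sample sums. Levels are in the usual CPM unit (parts per 1000000 of the UMIs counted): the UMIs of a gene summed over the cells of a class in 1 sample, relative to all UMIs of those cells, with an exact 95% Poisson interval that covers counting error only. Levels are compared between cells for 1 gene, not between genes.

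**Figure D1:**
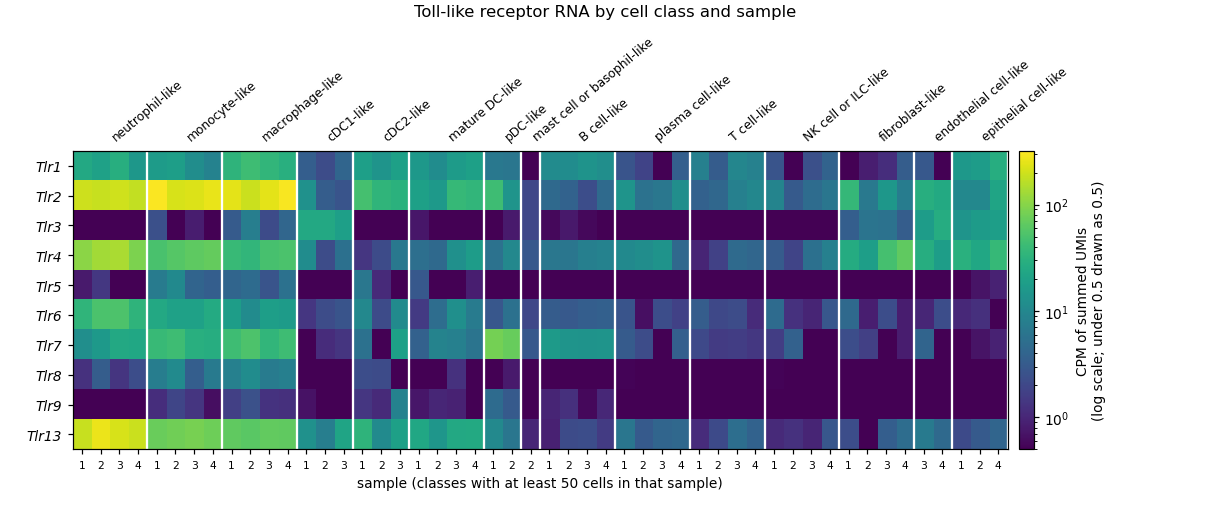
Level of each Toll-like receptor gene (rows) in every cell class and sample with at least 50 cells (columns, sample number below), as CPM of summed UMIs on a log colour scale. Tlr2 and Tlr13 are brightest in the neutrophil-, monocyte- and macrophage-like columns, and Tlr4 and Tlr6 in the neutrophil-like columns. Tlr3 is brightest in cDC1-, endothelial- and epithelial-like columns, and Tlr7 in the pDC-like columns.

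Toll-like receptor RNA as a total was highest in the neutrophil-, monocyte- and macrophage-like classes, and single members differed in their highest class. Summed over the 10 members, the level was 533 to 672 CPM in neutrophil-like, 448 to 528 CPM in monocyte-like and 420 to 530 CPM in macrophage-like cells, and at most 156 CPM in any other class (pDC-like cells of sample 1). This total mostly reflects Tlr2, Tlr13 and Tlr4, with 33296, 16515 and 11357 UMIs over all kept cells, against at most 6058 for any other member. Tlr1, Tlr4, Tlr6, Tlr8 and Tlr13 had the same highest class in all 4 samples, which makes 5 of 10 members. That class was neutrophil-like for Tlr4, Tlr6 and Tlr13, and macrophage-like for Tlr1 and Tlr8. The same count was not made over all genes, so this one describes the members only. A member led by a class that was not read in every sample could not be counted. Tlr2 and Tlr5 were highest in monocyte-like or macrophage-like cells, depending on the sample. Tlr3 was highest in cDC1-like cells in samples 1 to 3 and in endothelial cell-like cells in sample 4, where cDC1-like cells were too few to read. Tlr7 was highest in pDC-like cells in samples 1 and 2, the only samples with enough of them. After each cell was thinned to 1000 UMIs, 41.8 to 46.8% of neutrophil-like cells held a UMI of any member, against 35 to 40.2% of monocyte-like, 31.8 to 38.4% of macrophage-like and 1.55 to 3.19% of T cell-like cells. Without thinning, these shares were 78.3 to 89.3%, 83.1 to 92.4%, 80.7 to 87.1% and 6.67 to 18.9%, over median depths of 2915.5 to 5943.5, 5898 to 8607.5, 5505 to 8237 and 4639 to 6571.5 UMIs per cell.

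Tlr13 was the member with the clearest neutrophil pattern. Its level in neutrophil-like cells was 187 (95% interval 178 to 197), 264 (243 to 287), 214 (204 to 224) and 190 (181 to 200) CPM in samples 1 to 4. In monocyte-like cells it was 73.2, 78.4, 85.5 and 76.1 CPM, and in macrophage-like cells 65.7, 61.2, 68.1 and 65.6 CPM. The neutrophil range did not overlap either mononuclear range, and the intervals of neutrophil- and monocyte-like cells were apart in 4 of 4 samples. Monocyte- and macrophage-like ranges were also separate, but their intervals were apart in 2 of 4 samples. Dendritic classes came next, with 15 to 25.1 CPM in mature DC-like and 10.9 to 33.0 CPM in cDC2-like cells. The neutrophil genes S100a8 and S100a9 were at 0.191 to 9.02% of the neutrophil-like level in mature DC-like cells, highest in samples 3 and 4, and at 0.151 to 0.264% in cDC2-like cells. The part of neutrophil RNA in the Tlr13 of these classes was not tested. A Tlr13 UMI was found in 47.3 to 59.9% of neutrophil-like cells and, after thinning, in 17.5 to 24.2%. In T cell-like cells, which are not known for Tlr13, these shares were 0.759 to 4.32% and 0.129 to 0.312%.

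Tlr4, the lipopolysaccharide receptor, followed the same order of classes. It was 104 (97.4 to 111), 129 (114 to 146), 140 (132 to 148) and 89.5 (83.0 to 96.3) CPM in neutrophil-like cells. Monocyte-like cells held 49.5, 58.4, 65.2 and 70.3 CPM, and macrophage-like cells 39.3, 34.9, 49.3 and 51.6 CPM. The monocyte- and macrophage-like ranges overlapped between samples, but within each of the 4 samples the monocyte-like level was higher with intervals apart. Outside the leukocytes, Tlr4 was found at 26.4, 18.9, 47.4 and 66.0 CPM in fibroblast-like cells and at 30.5, 23.7 and 37.7 CPM in epithelial cell-like cells of samples 1, 2 and 4. The fibroblast-like range overlapped both the macrophage- and the monocyte-like range, and in sample 4 the fibroblast-like level was above the macrophage-like one. Endothelial cell-like cells held 18.2 to 27.8 CPM in the samples read. Epithelial cell-like cells had a median of 28715 to 49618 UMIs in those samples, and the share of them with a Tlr4 UMI moved from 41.1 to 66.7% before thinning to 2.08 to 8.11% after it.

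Tlr6, a partner of Tlr2, was 34.5 (30.7 to 38.6), 51.3 (42.1 to 62.0), 53.2 (48.5 to 58.2) and 33.6 (29.7 to 37.9) CPM in neutrophil-like cells. It was 24.7, 19.9, 20.3 and 25.9 CPM in monocyte-like cells and 18.3, 11.2, 18.6 and 17.1 CPM in macrophage-like cells. The 3 ranges did not overlap, and intervals of adjacent classes were apart in 3 of 4 samples at each step. B cell-like cells held only 3.03 to 3.59 CPM.

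Tlr2 was shared by the myeloid classes more evenly. It was 306, 217, 227 and 258 CPM in monocyte-like cells, 244, 190, 244 and 304 CPM in macrophage-like cells and 194, 186, 198 and 178 CPM in neutrophil-like cells. Monocyte-like cells were above macrophage-like cells in samples 1 and 2 and below them in samples 3 and 4, so no single order of these classes held over the samples. Within each sample the interval of their ratio excluded 1: 1.18 to 1.33, 1.04 to 1.25, 0.881 to 0.978 and 0.791 to 0.907 in samples 1 to 4. The neutrophil range was narrow, with the highest sample 1.11 times the lowest, and overlapped the macrophage range. The next class, cDC2-like cells, held 30.7 to 47.9 CPM. T cell-like cells held 3.72 to 10.0 CPM, which was 1.52 to 3.41% of the macrophage-like level of the same sample.

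Tlr1, the other partner of Tlr2, was highest in macrophage-like cells, at 33.6 (29.3 to 38.4), 43.2 (38.4 to 48.4), 34.7 (31.5 to 38.2) and 29.4 (26.0 to 33.2) CPM. Neutrophil-like cells held 24.4, 20.4, 28.8 and 15.2 CPM, and their intervals were below those of macrophage-like cells in 3 of 4 samples. Monocyte-like cells held 17.2, 18.6, 11.8 and 8.76 CPM. In lymphocytes, B cell-like cells held 11.2 to 13.9 CPM of Tlr1 and T cell-like cells 3.28 to 9.81 CPM, the latter 7.59 to 29.2% of the macrophage-like level. From cDC2-like cells (14.2 to 19.8 CPM) through epithelial cell-like cells (15.6 to 28 CPM) to mature DC-like cells (11.5 to 19.9 CPM), neighbouring ranges overlapped.

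**Figure D2:**
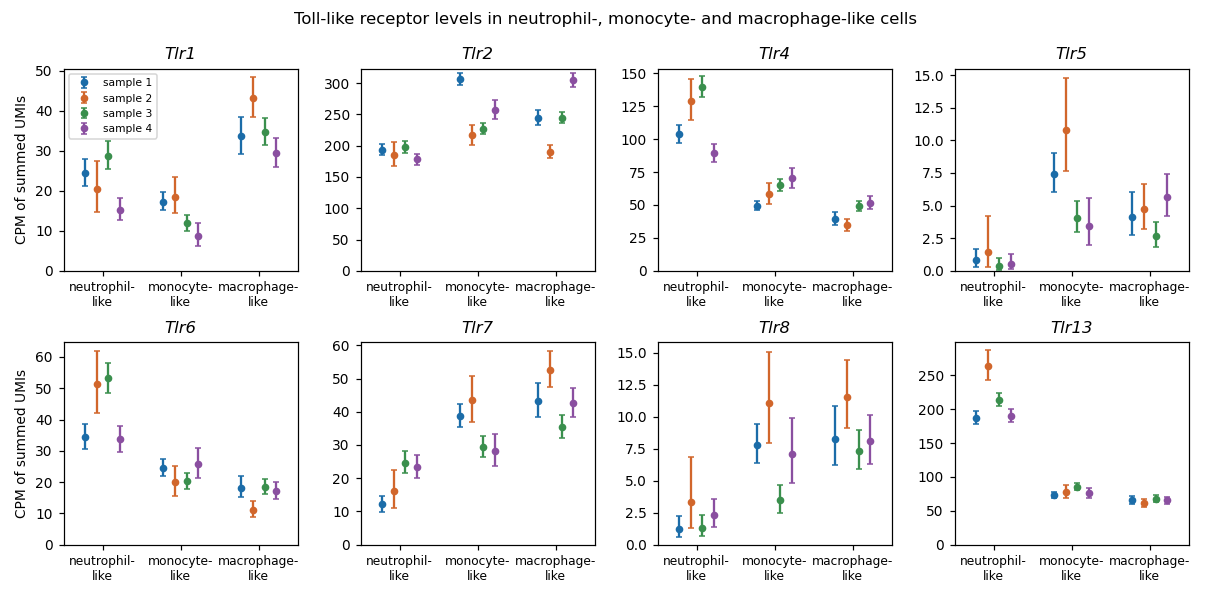
CPM of summed UMIs (linear axis from 0) for 8 members in neutrophil-, monocyte- and macrophage-like cells, 1 point per sample with its exact 95% Poisson interval. For Tlr4, Tlr6 and Tlr13 all 4 neutrophil-like points lie above the monocyte- and macrophage-like points, and for Tlr1 all macrophage-like points (lowest 29.4 CPM) lie above the highest neutrophil-like point (28.8 CPM).

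Tlr5 and Tlr8 were low, with their highest levels in mononuclear cells. Tlr5, the flagellin receptor, was 7.42 (6.05 to 9), 10.8 (7.68 to 14.8), 4.05 (2.99 to 5.37) and 3.42 (1.95 to 5.55) CPM in monocyte-like cells and 4.14, 4.73, 2.65 and 5.64 CPM in macrophage-like cells. Those ranges overlapped, and in sample 4 the macrophage-like level was the higher one. In neutrophil-like cells it was 0.336 to 1.43 CPM, from 17 UMIs in all. Tlr8 was 8.29, 11.5, 7.32 and 8.07 CPM in macrophage-like cells and 7.78, 11.1, 3.46 and 7.05 CPM in monocyte-like cells, and only in sample 3 were their intervals apart. Neutrophil-like cells held 1.26, 3.33, 1.34 and 2.28 CPM of Tlr8. In epithelial cell-like cells, which are known to use Tlr5 in parts of the gut, Tlr5 had 8 UMIs in the 3 samples read.

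Among the endosomal receptors, Tlr7 was led by pDC-like cells. They held 83.0 (66.5 to 102) CPM in sample 1 and 71.7 (57.7 to 88.0) CPM in sample 2, where 61.4 and 63.1% of cells had a Tlr7 UMI. Macrophage-like cells followed with 43.3, 52.7, 35.5 and 42.7 CPM and monocyte-like cells with 38.8, 43.5, 29.3 and 28.2 CPM. The pDC- and macrophage-like ranges did not overlap, although the intervals were apart only in sample 1 of the 2 samples read. Monocyte-like cells lay below macrophage-like cells in 4 of 4 samples, but with intervals apart in only 1. Neutrophil-like cells held 12.1, 16.2, 24.6 and 23.5 CPM and B cell-like cells 16.8, 14.1, 13.9 and 14.3 CPM, and these overlapped. T cell-like cells held 1.43 to 2.11 CPM.

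Tlr3 had a pattern of its own. It was 24.7 (17.3 to 34.2), 24.7 (15.5 to 37.4) and 19.0 (10.4 to 31.9) CPM in cDC1-like cells of samples 1 to 3. Endothelial cell-like cells held 17.9 (10.6 to 28.3) and 27.3 (14.1 to 47.7) CPM in samples 3 and 4, and epithelial cell-like cells 14.2, 17.4 and 18.7 CPM in samples 1, 2 and 4. The endothelial cell-like range overlapped both others. The cDC1-like range (from 19.0 CPM) lay just above the epithelial cell-like range (up to 18.7 CPM). Intervals of cDC1- and endothelial cell-like cells overlapped in sample 3, where both were read, and those of endothelial and epithelial cell-like cells in sample 4. Intervals of cDC1- and epithelial cell-like cells overlapped in samples 1 and 2. Below them, fibroblast-like cells held 3.38 to 6 CPM and macrophage-like cells 3.22, 7.84, 2.17 and 4.20 CPM. Neutrophil-like cells held 0 to 0.229 CPM, and in NK cell- or ILC-like cells no Tlr3 UMI was found, which allows up to 1.46 to 1.88 CPM at 3 UMIs per sample. Fibroblast-, endothelial- and epithelial-like cells together held 28.6, 45.9, 48.4 and 60.6% of all Tlr3 UMIs of the kept cells.

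Tlr9, the DNA sensor, was scarce in all classes. The 39550 kept cells held 257 Tlr9 UMIs, against 764 for Tlr3 and 33296 for Tlr2. pDC-like cells had 4.77 (1.55 to 11.1) and 3.15 (0.859 to 8.07) CPM, from 5 and 4 UMIs. Macrophage-like cells had 1.22 to 2.51 CPM and B cell-like cells 0.579 to 1.23 CPM, and no interval separated pDC- from macrophage-like cells. The highest single value, 8.79 (2.39 to 22.5) CPM in cDC2-like cells of sample 3, came from 4 UMIs. The Tlr9 order is therefore not resolved at this depth.

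**Figure D3:**
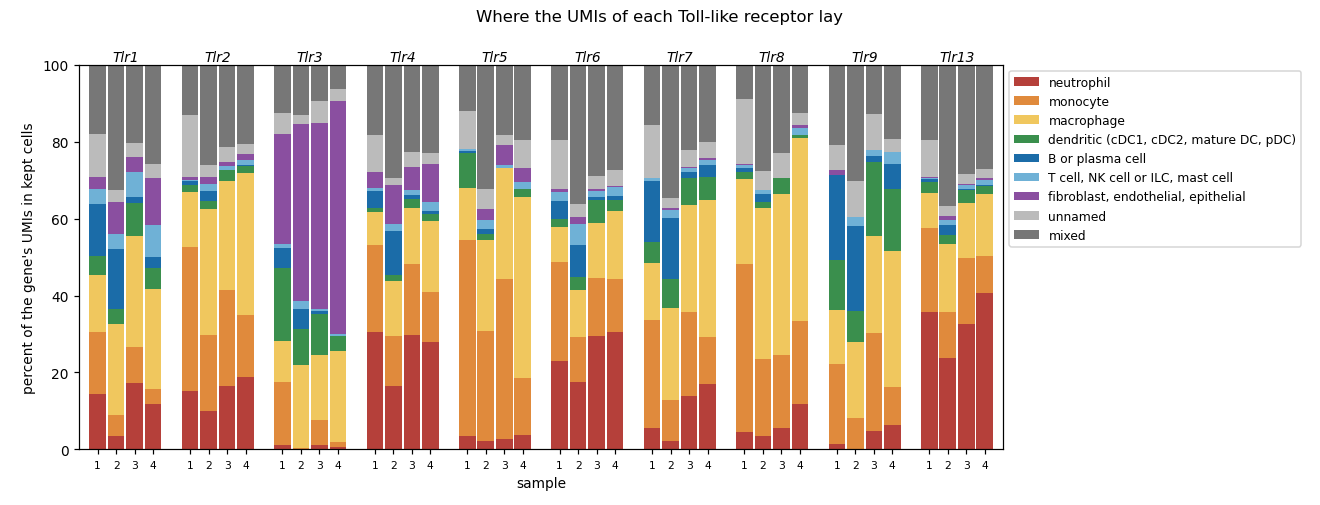
Share of each member's UMIs (percent, stacked to 100) held by groups of cell classes in each of the 4 samples. Neutrophil-like cells held 23.7 to 40.6% of Tlr13 UMIs but 0 to 1.26% of Tlr3 UMIs, and the mixed clusters held up to 36.7% (Tlr13 in sample 2).

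The question of how neutrophils and mononuclear phagocytes differ was put as a ratio of CPM within each sample, neutrophil-like over the sum of monocyte- and macrophage-like cells. A member was called where the ratio was at least 2-fold in the same direction in every sample read, among genes with a mean of at least 5 CPM. Of 10 members 7 were tested, and 1 was called higher (Tlr13) and 1 lower (Tlr8). Over the 8242 genes tested, 7.68% were called higher and 35.8% lower in neutrophil-like cells. The median ratio was 0.88 over the tested members and 0.57 over all tested genes. The Tlr13 ratio was 2.65 (2.47 to 2.85), 3.93 (3.51 to 4.40), 2.79 (2.62 to 2.98) and 2.75 (2.53 to 2.99). The Tlr8 ratio was 0.159 (0.0776 to 0.291), 0.292 (0.115 to 0.621), 0.247 (0.125 to 0.446) and 0.296 (0.169 to 0.490). Tlr4 (2.25, 3, 2.45 and 1.54) and Tlr6 (1.52, 3.60, 2.74 and 1.67) were above 1 in every sample but missed 2-fold in at least 1, and Tlr7 was 0.302, 0.327, 0.759 and 0.622. Neither member stayed called when the mixed clusters were given to their best-scoring class, where the Tlr13 ratio was 1.83 to 2.11 and Tlr8 was under the level to be tested. Without sample 2, the Tlr8 mean was also too low, and without sample 4 Tlr4 was called higher as well.

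Of the 38 other genes of the pathway listed for this work, 30 were tested in the same comparison, and 2 were called higher and 11 lower in neutrophil-like cells, shares near those of all tested genes. The genes called higher were Tirap, an adaptor that links Tlr2 and Tlr4 to Myd88 (ratio 4.36 to 5.12), and Irak3, an inhibitory kinase of the pathway (3.06 to 6.04). The largest differences the other way were Cd36, a scavenger receptor that aids Tlr2 (0.0141 to 0.0434), and Cd180, a receptor-like protein without a signalling domain (0.0138 to 0.0844). Of the genes for receptor folding and trafficking, Unc93b1 (0.161 to 0.182), Hsp90b1 (0.0767 to 0.0925) and Cnpy3 (0.213 to 0.363) were called lower, and Cnpy4 was too low to be tested. Over the tested pathway genes the median ratio was 0.81. The co-receptors Cd14 (1.79 to 3.19) and Ly96 (1.12 to 1.63) and the adaptor Myd88 (1.26 to 1.98) were not called. Unc93b1, which carries the endosomal receptors, was 53.6 to 78.4 CPM in neutrophil-like cells and 386 to 533 CPM in macrophage-like cells. The adaptor Ticam1, used by Tlr3 and Tlr4, was 0 to 1.78 CPM in neutrophil-like and 12 to 18.9 CPM in macrophage-like cells.

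**Figure D4:**
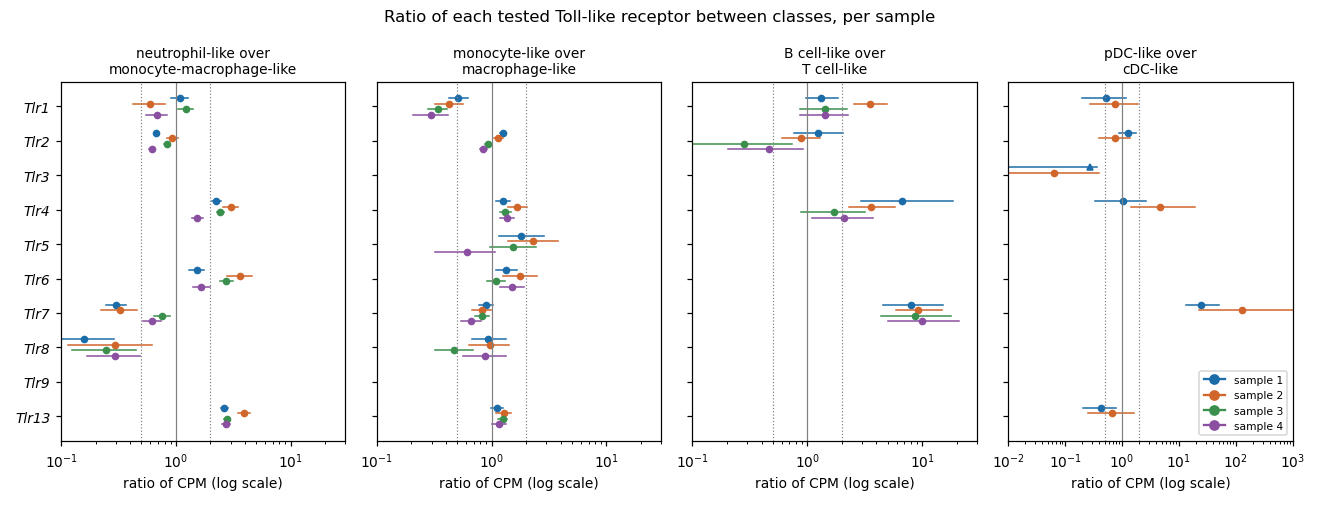
Ratio of CPM between classes within each sample (log axis) for the members tested in each comparison, with exact 95% intervals. A triangle marks a ratio set at the floor of 3 UMIs because 1 class had none, and dotted lines mark 2-fold either way, and intervals that run past the axis are cut at its edge. Tlr13 lies right of 2-fold in all 4 samples for neutrophil-like cells, and Tlr7 does so for B cell-like cells. For pDC-like cells, read in samples 1 and 2 only, Tlr7 lies right of 2-fold in both.

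Between monocyte-like and macrophage-like cells, 8 members were tested and 0 were called, against 1.2% of 8606 tested genes called higher and 3.46% called lower in monocyte-like cells. With a 1.5-fold rule the count of members was 1, given here without a share over all genes at that rule. No p-value was computed, because samples whose genotype the labels do not give were not treated as replicates. The closest was Tlr1, at 0.513 (0.425 to 0.619), 0.430, 0.340 and 0.298 of the macrophage-like level: the first sample missed 2-fold, and Tlr1 was called in 5 of the 7 other ways of filtering and classing the cells, and without sample 1. In sample 1, 67.9% of monocyte-like cells lay in a cluster led by Aif1 and Lyz2. Its mean marker score was 1.43 on the monocyte list and 1.26 on the macrophage list, so its name was a close call. Tlr4 was 1.26 to 1.67 times, Tlr13 1.11 to 1.28 times and Tlr6 1.09 to 1.77 times the macrophage-like level. Of the pathway list 32 genes were tested and 1 was called, Tlr12, a receptor for profilin of protozoan parasites: it was 0.0143 to 0.0973 of the macrophage-like level, or 8.51 to 38.8 CPM in macrophage-like against 0 to 2.76 CPM in monocyte-like cells.

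Between B cell-like and T cell-like cells, 4 members were tested and 1 was called higher, Tlr7, against 6.88% of 9462 tested genes called higher and 9.08% called lower. Its ratio was 7.97 (4.59 to 15.1), 9.17 (5.91 to 14.9), 8.68 (4.37 to 17.8) and 10.0 (5.02 to 21.1). The size depended on the classing: at Leiden resolution 1.0 it was 2.46 to 4.37, and with the mixed clusters assigned 2.16 to 3.63. Tlr4 (6.66, 3.59, 1.73 and 2.08) and Tlr1 (1.33, 3.54, 1.42 and 1.43) were above 1 in 4 of 4 samples without a call. The interval included 1 for Tlr1 in samples 1, 3 and 4 (0.972 to 1.84, 0.863 to 2.24 and 0.865 to 2.29). For Tlr4 it included 1 in sample 3 (0.874 to 3.21). Among 32 tested pathway genes 6 were called higher and 4 lower. The largest were Cd180 (19.9 to 86.0) and its partner Ly86 (17.4 to 77.6) in B cell-like cells, and Il1rl1, the receptor for IL-33 and also a marker in the NK cell or ILC list (0.00695 to 0.0726), and Tnfaip3, an inhibitor of NF-kB (0.140 to 0.231), lower there. Unc93b1 was also higher, at 7.36 to 13.9 times the T cell-like level.

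Between pDC-like and conventional DC-like cells (cDC1 and cDC2 summed), samples 1 and 2 had enough cells. Of 6 members tested, 1 was called higher (Tlr7) and 1 lower (Tlr3), against 15.1% of 9281 tested genes called higher and 7.89% lower. Tlr7 was 24.9 (13.6 to 50.1) times higher in sample 1, from 87 against 12 UMIs, and 129 (22.7 to 5170) times in sample 2, where the conventional cells had 1 UMI. Tlr3 had 0 UMIs in pDC-like cells of sample 1, which at 3 UMIs allows a ratio of up to 0.279, and 1 UMI in sample 2, a ratio of 0.0647 (0.00157 to 0.400). The Tlr3 of the summed conventional class lay in its cDC1-like part, at 19.0 to 24.7 CPM in samples 1 to 3. In cDC2-like cells it was 0 to 0.465 CPM, from 1 UMI, against 0 to 0.788 CPM in pDC-like cells. The Tlr3 call therefore does not extend to cDC2-like cells. Among 30 pathway genes tested, Irak3 was called higher (3.57 to 4.22) and Irf5, a transcription factor downstream of Tlr7 and Tlr9, lower (0.290 to 0.329).

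Within the classes, clusters differed in ways the class sums hide. Most of the neutrophil-like cells fell into a cluster led by Ltf and Camp, granule genes of young neutrophils (929 cells), one led by Stfa2l1 and Retnlg (2370 cells) and one led by G0s2 and Hcar2 (1547 cells). Tlr4 was 63.4, 64.7 and 52.7 CPM in the Ltf-led cluster of samples 1, 3 and 4. It was 116, 111, 132 and 110 CPM in the Stfa2l1-led cluster and 173, 151, 193 and 190 CPM in the G0s2-led cluster of samples 1 to 4. The 3 ranges did not overlap, and the G0s2-led level was 2.73 (2.08 to 3.6), 2.98 and 3.61 times the Ltf-led level. Tlr6 followed the same order with 20.6 to 27.1, 32.9 to 47.6 and 59.5 to 89.9 CPM, as did Tlr13 with 121 to 141, 195 to 236 and 256 to 342 CPM. Tlr2 did not: it was 163 to 193, 165 to 198 and 186 to 201 CPM.

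The samples held these neutrophil clusters in different shares. The Ltf-led cluster made up 14, 4.34, 8.6 and 36.6% of neutrophil-like cells in samples 1 to 4, and the G0s2-led cluster 19.5, 50.9, 31.9 and 15.7%. A further cluster led by S100a9 and Cxcl10 made up 45.7% in sample 1 and 0.784 to 2.40% in the others, with Tlr4 at 99.8 CPM. A small cluster led by Cc2d2b and Tll2 (148 cells) was read in sample 3 only, from 63 cells. Its Tlr4 was 228 CPM, from 69 UMIs, above the G0s2-led range (up to 193 CPM). Sample 4, with the largest Ltf-led share, had the lowest Tlr4 and Tlr6 levels over all neutrophil-like cells. Within the G0s2-led cluster its Tlr4 (190 CPM) was above that of samples 1 and 2. Its Tlr6 there (89.9 CPM) was the highest of the 4 samples. In the Ltf-led (52.7 CPM) and Stfa2l1-led (110 CPM) clusters, sample 4 had the lowest Tlr4 of the samples read. Tlr13 over all neutrophil-like cells was lowest in sample 1 (187 CPM, against 190 CPM in sample 4). The part of cluster shares in the class levels was not tested. The G0s2-led cells were shallow, with a median of 2186.5 to 2783 UMIs per cell. In the Ltf-led cells of samples 1, 3 and 4 the median was 4765 to 7399.5. Counted per cell, the order of the Ltf-, Stfa2l1- and G0s2-led clusters did not hold, and among these Stfa2l1-led cells held the most. Tlr13 had 854 UMIs in 900 Ltf-led cells, 2595 in 2370 Stfa2l1-led cells and 1057 in 1547 G0s2-led cells of the samples read. For Tlr4 the UMIs were 357, 1422 and 684, and for Tlr6 156, 478 and 291. The S100a9-led cluster, read in sample 1, held more per cell, with 900 Tlr13, 467 Tlr4 and 159 Tlr6 UMIs in 635 cells. The Cc2d2b-led cluster of sample 3 held 49, 69 and 23 in 63 cells, more per cell for Tlr4 and Tlr6 but not for Tlr13. The part of depth in the cluster levels was not tested either. Each cluster was defined on other genes of the same cells, so these differences are a description.

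**Figure D5:**
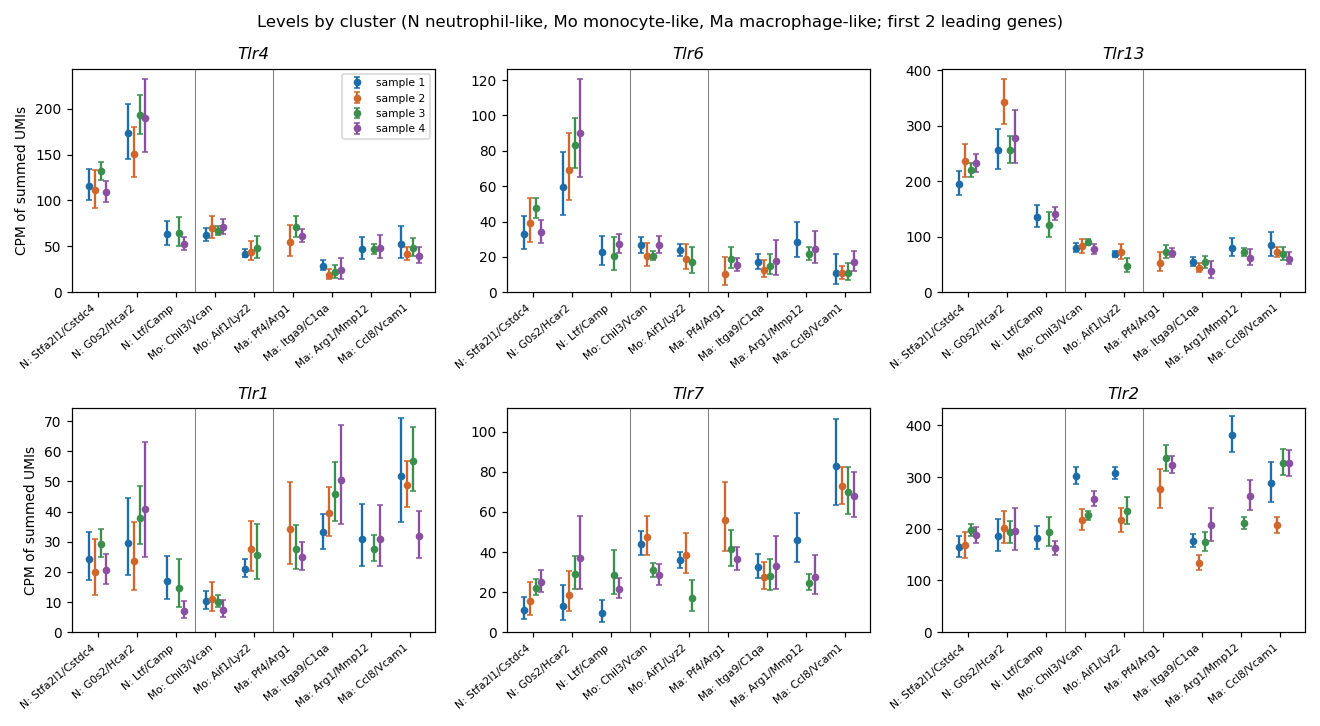
CPM of summed UMIs by cluster (linear axis from 0) for 6 members, 1 point per sample with at least 50 cells in the cluster and its exact 95% Poisson interval. Tlr4, Tlr6 and Tlr13 step up from the Ltf-led to the Stfa2l1-led and the G0s2-led neutrophil-like cluster, while Tlr7 is highest in the Ccl8-led macrophage-like cluster.

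Macrophage-like clusters differed in Tlr7, Tlr4 and Tlr2. A cluster led by Ccl8 and Vcam1 held Tlr7 at 82.9, 72.8, 70 and 67.9 CPM. The cluster led by Itga9 and C1qa (1238 cells) held 32.7, 27.5, 28.1 and 32.8 CPM, and the clusters led by Pf4 and by Arg1 with Mmp12 lay at 24.6 to 55.8 CPM. The Ccl8-led level was 2.54 (1.84 to 3.47), 2.65, 2.49 and 2.07 times the Itga9-led level, and in samples 1 and 2 it was near that of pDC-like cells. The Ccl8-led cluster also had the highest Tlr3 of these clusters in samples 1 to 4, at 5.44, 10.7, 6.9 and 10.8 CPM. These values came from 4, 35, 14 and 23 UMIs. In each sample the interval overlapped that of another of these clusters, so this order is not resolved. Tlr4 was lowest in the Itga9-led cluster, at 28.9, 19.3, 21.9 and 24 CPM, against 54.5, 70.7 and 61.7 CPM in the Pf4-led cluster of samples 2 to 4. Tlr2 was also lowest in the Itga9-led cluster, at 177, 133, 175 and 207 CPM, against 277, 336 and 324 CPM in the Pf4-led cluster. The Itga9-led cluster made up 61.5, 39.6, 16.2 and 10.1% of macrophage-like cells in samples 1 to 4 and the Pf4-led cluster 6.58, 14.8, 22.1 and 55.5%. Among monocyte-like cells, the cluster led by Aif1 and Lyz2 held 2.05, 2.5 and 2.52 times the Tlr1 of the cluster led by Chil3 and Vcan in samples 1 to 3, and 0.674, 0.632 and 0.714 times its Tlr4. The Aif1-led cluster made up 67.9% of monocyte-like cells in sample 1 and 5.91% in sample 4.

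The samples also differed in the levels summed over all cells. Over all kept cells, Tlr2 was 119, 36.5, 126 and 117 CPM and Tlr13 49.1, 21.8, 69.0 and 58.0 CPM. Sample 2 was lowest for both. Neutrophil-like cells made up 5.65% of its kept cells against 13.9, 22.1 and 18.6% in samples 1, 3 and 4, and monocyte-like cells 5.07% against 15.5, 16.8 and 9.64%. The part of these shares in the summed levels was not tested. Within neutrophil-like cells, sample 2 had the highest Tlr13 of the 4 samples, and its Tlr2 lay between those of the others. Monocyte- and macrophage-like Tlr2 was lowest in sample 2, at 217 and 190 CPM. Tlr8 and Tlr5, both at low counts, spread more within monocyte-like cells than over all cells: there the highest sample was 3.2 times the lowest for Tlr8 and 3.16 times for Tlr5, while their levels over all kept cells were 1.85 to 2.62 and 1.26 to 2.14 CPM. Ahr, the gene targeted in the study, was at 105 to 126 CPM over all kept cells of the 4 samples. Its spread was wider within some classes. In monocyte-like cells it ran from 100.8 CPM (sample 4) to 218 CPM (sample 2). In cDC2-like cells it ran from 327 CPM (sample 1) to 597 CPM (sample 3). In epithelial cell-like cells of samples 1, 2 and 4 it was 38.2 to 41.5 CPM. Whether the counted Ahr RNA came from an intact gene was not tested, so these levels assign no genotype.

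RNA from burst cells can add UMIs of any abundant gene to a droplet. Genes of other lineages served as a gauge: in T cell-like cells C1qa and C1qb, made by macrophages, were at 0.388 to 1.09% of the macrophage-like level, S100a8 and S100a9 at 0.234 to 1.39% of the neutrophil-like level, Fcgr1 at 0.808 to 3.51% of the macrophage-like level, and Cd79a at 0.664 to 5.26% of the B cell-like level. Tlr13 in T cell-like cells was at 0.605 to 2.39% of the neutrophil-like level, above S100a8 and S100a9 in 4 of 4 samples. Tlr2 there was at 1.52 to 3.41% of the macrophage-like level, above C1qa and C1qb. It was above the share of Fcgr1 in samples 1, 2 and 4 and below it in sample 3. Monocyte-like cells held Fcgr1 at 93.2 to 114% of the macrophage-like level, so this gene is not particular to macrophage-like cells. How much of the Tlr13 or Tlr2 in T cell-like cells was free RNA was not tested. Tlr1 in T cell-like cells was above the shares of all these genes (7.59 to 29.2% of the macrophage-like level). So was Tlr7 in B cell-like cells, at 26.7 to 39.2% of the macrophage-like level where C1qa, C1qb and Fcgr1 were at 0.479 to 3.51%. The gauge was less even in dendritic classes. Cd79a was at 26.7 and 33.4% of the B cell-like level in pDC-like cells of samples 1 and 2, and at 2.13 to 19.9% in mature DC-like cells. C1qa and C1qb were at 0.189 to 2.72% of the macrophage-like level in pDC-like cells. The source of the Cd79a UMIs was not tested.

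Over the 50 class-by-sample sums, the genes most like each member in log2 CPM were ranked among 13391 genes by Pearson's r, as a description, since the sums share libraries, depth and cell classes. Tlr13 was most like Ptafr (r = 0.96), Slc7a11 (0.95) and Mefv (0.94), the last being the gene of the pyrin inflammasome. Tlr2 was most like Sirpb1c (0.94), Cd14 (0.93) and Igsf6 (0.93), and Tlr4 like Mindy1 (0.89), Ly96 (0.87) and Sgms2 (0.87). Cd14 and Ly96 are the co-receptors named above. Tlr6 was most like Sirpb1a (0.92), Clec4e (0.90) and Csf3r (0.90), the receptor for the neutrophil growth factor G-CSF. Tlr8 was most like 4930430E12Rik (0.91), Osm (0.88) and Dpep2 (0.88), and Tlr5 like Tlr8 (0.86), Ccl9 (0.83) and Dpep2 (0.83). The likeness was looser for Tlr1 (Nipsnap3b, 0.80, Prkcd, 0.77, and Tpd52, 0.75), Tlr3 (Wtip, 0.82, Fam149a, 0.81, and Plce1, 0.80), Tlr7 (Cyp4f18, 0.81, Wdr81, 0.80, and Cybb, 0.80) and Tlr9 (Pld4, 0.76, Cybb, 0.75, and Pip5k1c, 0.73). Between members, Tlr2 with Tlr13 (0.88), Tlr6 with Tlr13 (0.86) and Tlr5 with Tlr8 (0.86) were the closest pairs, and Tlr3 with Tlr6 (-0.30) the most opposed.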

How the data were processed

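Raw UMI counts, 1 sparse matrix for each of the 4 samples, are what the authors deposited. The submitters' processing notes name Cell Ranger 5.0.0, STAR and Seurat with build mm10, while the matrix headers name Cell Ranger 7.0.1. Whether introns were counted is not given in the sources used here. From the counts, cells with at least 200 genes and under 20% mitochondrial UMIs were kept. The highest Scrublet scores (scanpy 1.11.5) were removed as doublets at 0.8% per 1000 cells (520 to 1399 per sample, leaving 39550 of 43432 cells). Automatic thresholds were not used because they were uneven. They called 0 cells in samples 2 and 4, but 2417 and 3591 in samples 1 and 3, where 966 and 997 were removed. Counts were scaled to 10000 per cell and log-transformed. From 2000 variable genes, 30 principal components and 15 neighbours, Leiden clusters (leidenalg 0.10.2, resolution 2.0) were made. Clusters were named by 15 marker lists, under a rule written after the clusters were seen, and conventional DC clusters were divided by clustering them again. Doublet-like clusters with raised markers of another lineage were set aside as mixed. UMIs were summed per class and sample, and classes under 50 cells in a sample were not read. Intervals are exact at 95% (Poisson for CPM, binomial for shares and ratios), and a count of 0 is bounded by 3 UMIs. Depth was 72509408 to 135516016 UMIs per sample. The calling rule was tested on simulated data. The labels put no sample in a group, so no test between samples was made. The members, lists and named genes (all members, the 3 genes most like each, and the 2 called pathway genes of largest ratio each way) were chosen with earlier results of these data known, and the other pathway genes named (Unc93b1, Hsp90b1, Cnpy3, Cnpy4, Ticam1, Cd14, Ly96, Myd88, Tlr11) were picked after their values were seen.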

Additional observations from a re-analysis of the deposited data

How the results depend on the processing

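Results rest on 4 pooled samples without known groups, on class names built here, and on counting depth: low members (Tlr5, Tlr8, Tlr9) and classes with few cells have wide intervals. No paired test was run. The ratios pair both classes within each sample, but samples of unknown genotype were not treated as replicates. The highest class of a member in a sample stayed as reported in 31 of 40 cases with a gate on each cell and in 36 to 38 of 40 under the other 6 settings. Shares over all tested genes were given above for the reported rule and classing only. A looser rule can raise the calls over all genes too, so the counts that follow describe the members alone. Between neutrophil-like and monocyte-macrophage-like cells, 2 members were called. The count was 0 with mixed clusters assigned, 4 at 1.5-fold and 4 when genes were tested from a mean of 1 CPM, and 1 to 3 when 1 sample was left out (1 without sample 2, where Tlr8 was lost, and 3 without sample 4, where Tlr4 was added). Between monocyte- and macrophage-like cells, 0 were called. The count was 1 with no doublets removed, with a minimum of 500 genes per cell, under 10% mitochondrial UMIs, at Leiden resolution 1.0, with a gate on each cell and at 1.5-fold, and 0 to 1 when 1 sample was left out. That gene was Tlr1 in each of the 5 filters and classings, and also without sample 1. Between B cell- and T cell-like cells, 1 was called. The count was 2 with a minimum of 500 genes per cell (adding Tlr4), 2 at Leiden resolution 1.0 (adding Tlr2), 3 with mixed clusters assigned (adding Tlr2 and Tlr13) and 2 at 1.5-fold. Apart from the construction of each setting, the cause of these changes was not tested. Between pDC- and conventional DC-like cells, 2 were called in all settings run except a minimum of 500 genes, under 10% mitochondrial UMIs, Leiden resolution 3.0 and testing from a mean of 1 CPM, which gave 3. The gate on each cell, and leaving out sample 1 or 2, gave no value there because too few samples held 50 cells of both classes. Member levels in their leading class were 0.70 to 1.23 times the reported value across filters and classings. As shares of cells with a UMI, thinned values were 0.0909 to 0.365 of the unthinned ones.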

Other observations

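A cluster led by Cxcl9, Cfb, Ly6i and Nos2, genes induced by interferon or in activated phagocytes, met no class name. It held 404 cells in sample 1, 94 in sample 3 and under 50 in samples 2 and 4. Tlr2 was 354 (337 to 372) CPM there in sample 1 and 268 (232 to 308) CPM in sample 3, Tlr6 30.4 and 36.4 CPM, Tlr7 47 and 33.7 CPM, and Tlr13 80.1 and 83.6 CPM. In sample 1 its Tlr2 level was above the monocyte-like 306 CPM and macrophage-like 244 CPM, but not above the macrophage-like cluster led by Arg1 and Mmp12, at 382 (348 to 418) CPM.

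The family members outside the 10 genes, Tlr11 and Tlr12, had their own places. Tlr11 was 13.6 to 24.0 CPM in cDC1-like cells and at most 1.33 CPM in monocyte- and macrophage-like cells. Tlr12 was 6.78 to 32.5 CPM in cDC1-like cells. Among macrophage-like clusters, Tlr12 was 35.2, 45.6, 27.1 and 27.7 CPM in the Itga9-led cluster and 43.5, 45.4, 26.6 and 21.5 CPM in the Ccl8-led cluster of samples 1 to 4, but 0.852 to 2.85 CPM in the Pf4-led cluster of samples 2 to 4.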
